A study of Mus musculus with 25 samples.

Results

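The genes described here encode the collagens, laminins and other large proteins of the extracellular matrix. They were chosen by symbol from the array's platform annotation: every numbered collagen chain, laminin chain and thrombospondin, together with Fn1, Nid1, Nid2, Hspg2, Agrn, Sparc, Lum, Dcn, Prelp, Postn, Vcan, Fbn1, Fbn2 and Eln. Probes matching this rule numbered 88 and covered 61 genes. Of these, 56 probes of 44 genes were kept because their detection p-value was under 0.05 on at least 3 arrays, among 10261 genes kept in all. The other 17 genes were Col10a1, Col11a1, Col13a1, Col14a1, Col17a1, Col19a1, Col24a1, Col28a1, Col4a3, Col4a4, Col5a2, Col6a6, Col8a2, Col9a3, Lamb1, Postn and Thbs4, none of them detected on more than 2 arrays. Fn1, Fbn1, Lama3 and Lama5 were not analysed here.

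The arrays (Illumina MouseRef-8 v2.0 bead arrays) profiled RNA from single mouse embryos of the B6 strain around the time the neural tube closes, either wild type (WT) or labelled miR-302 KO. Whole embryos of embryonic day 7.5 (E7.5) gave 2 WT and 3 KO arrays. Anterior neural tissue gave 2 WT and 3 KO arrays at E8.0, 3 of each genotype at E8.5 and 4 of each at E9.5. One more WT array of E8.0, labelled whole embryo, was kept as its own group. Replicates are independent embryos per the series design, and the sources used here do not give how the knockout allele was made.

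The extracellular matrix is the protein scaffold that cells secrete around themselves. Basement membranes are thin sheets built from a laminin network and a type IV collagen network, linked by nidogens and heparan sulphate proteoglycans such as perlecan and agrin, and one underlies the neural epithelium as it folds. Fibrillar collagens form the fibres of loose connective tissue and are made mainly by mesenchymal cells, which in the head come from the neural crest and the mesoderm. The miR-302 cluster encodes microRNAs of early embryonic cells, and most of them share a seed (bases 2 to 8), the stretch that pairs with target messages. The sources used here do not give which microRNAs of the cluster the allele removes, and 0 named probes measured a Mir302 or Mir367 gene, so the genotype labels were not checked here. Of 18 kept neural progenitor markers, 13 to 17 were detected in each group of anterior neural tissue.

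The mature sequences below, from RefSeq (GRCm38.p6), show the seeds in capitals. All lie on the plus strand of chromosome 3.
mmu-miR-302b-3p: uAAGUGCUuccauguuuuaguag
mmu-miR-302c-3p: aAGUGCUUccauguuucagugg
mmu-miR-302d-3p: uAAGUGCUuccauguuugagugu
mmu-miR-302b-3p and mmu-miR-302d-3p have the same seed, and that of mmu-miR-302c-3p is shifted along it by a base.

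Values are normalized log2 intensities, in which a difference of 1 is a doubling, and each gene is given by its brightest kept probe. Levels of different genes come from different probes and are not compared with each other. A gene is said to rise, fall or pass where the Benjamini-Hochberg adjusted p over all 10261 genes was under 0.05, from limma fitted to all 25 arrays. Median raw signal was 107 to 148 on the 17 arrays before E9.5 and 222 to 262 on the 8 E9.5 arrays. Between 24 and 33 of the 44 genes were detected on each array before E9.5, and between 36 and 41 on each E9.5 array. In all, 19 genes were detected on every array and 7 were kept through E9.5 arrays alone.

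The arrays of the E8.0 WT embryos carry a doubt about identity. In the deposited raw table, the signals of the column named WT 2 are in step with the detection p-values of the whole-embryo column, those of WT 3 with the p-values of WT 2, and those of the whole-embryo column with the p-values of WT 3. The deposited series matrix follows the detection columns. Signal column names were used, so WT 2 and WT 3 below are the signals under those names, and the E8.0 calls, counts and named differences are also given with the series matrix identity, in which the WT pair is the arrays here named WT 3 and whole embryo.

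**Figure D1:**
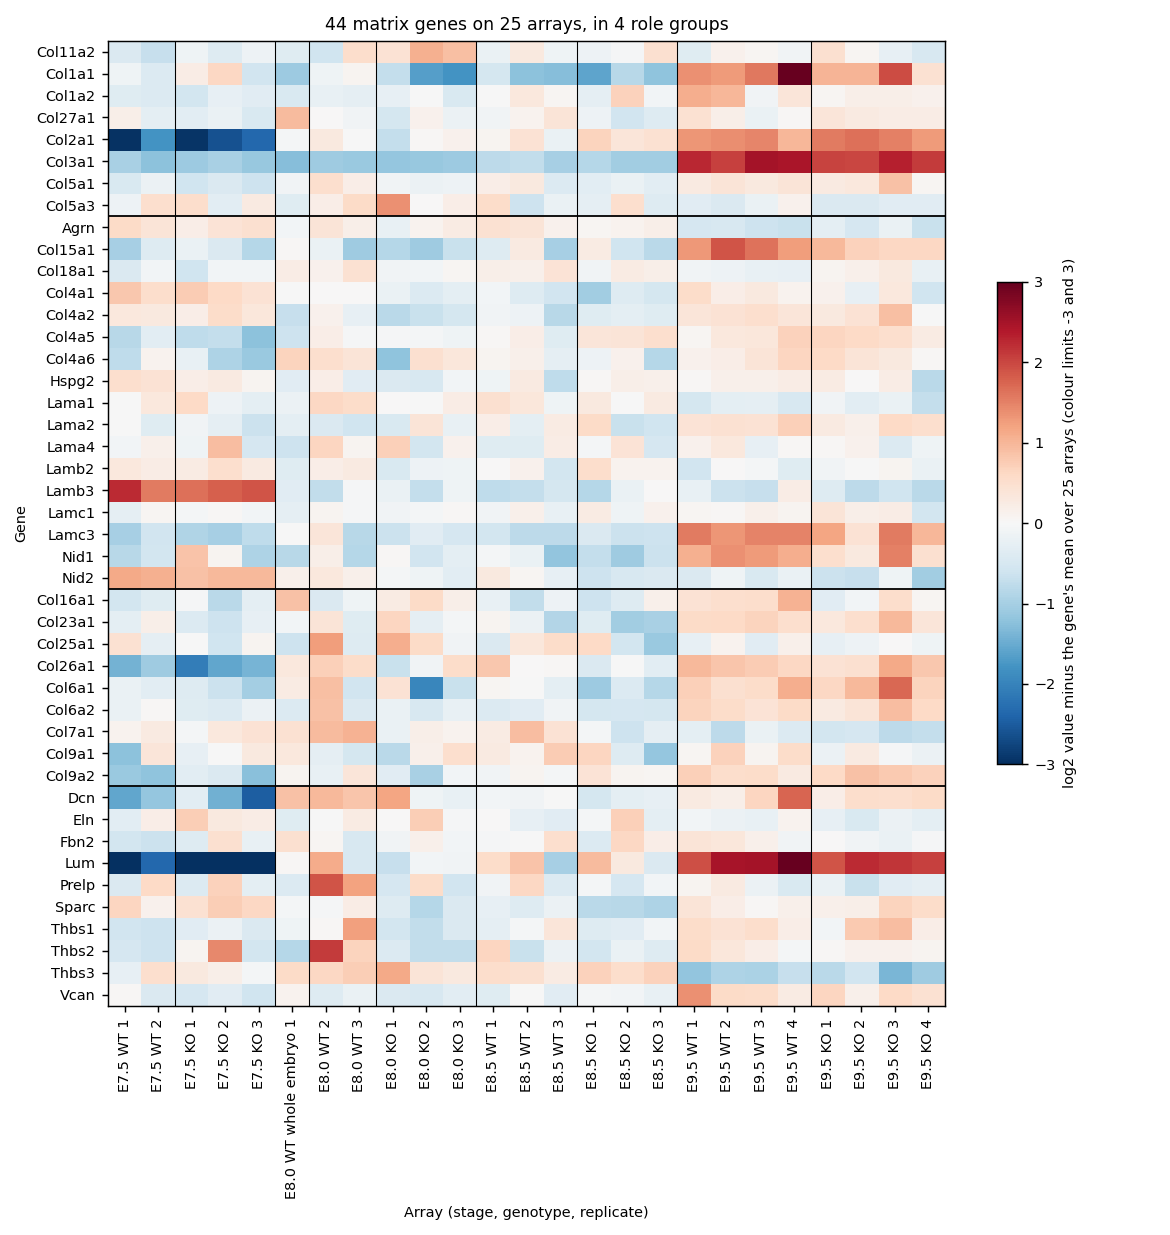
Normalized log2 intensity of each of the 44 matrix genes (rows, in 4 role groups) on each of the 25 arrays (columns), shown as the difference from the gene's mean over all arrays, with colours limited to -3 and 3. Col1a1, Col3a1, Lamc3 and Lum are reddest on the 8 E9.5 arrays, and Lamb3 on the 5 E7.5 arrays.

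The comparison of E9.5 with E8.5 asked how matrix genes differ between early and late neural tube stages in each genotype. Of the 44 genes, 14 rose (31.8%) and 5 fell in WT, and 18 rose (40.9%) and 3 fell in KO. Among all genes, 18.9% rose and 22.9% fell in WT, and 15.5% rose and 18.6% fell in KO. The 44 genes had a median log2 difference of 0.37 in WT and 0.51 in KO, against -0.07 and -0.04 over all genes. The 7 genes kept through E9.5 arrays alone (Col1a2, Col27a1, Col3a1, Col6a2, Lamc3, Thbs1 and Vcan) passed the filter on that stage, so their rises are no support for the counts. Without them, 10 of 37 genes rose (27.0%) and 5 fell in WT, and 12 rose (32.4%) and 3 fell in KO. The median of those 37 genes was 0.34 in WT and 0.27 in KO, against -0.10 and -0.07 over all genes kept without E9.5 arrays. The 9590 genes of the whole table that also pass the filter without E9.5 arrays rose in 17.7% and fell in 24.5% in WT, and rose in 13.9% and fell in 19.9% in KO. In all, 41.9% of genes passed in WT and 34.1% in KO. Every E9.5 array was higher than every E8.5 array for 18 of the 44 genes in WT and 19 in KO. That held for 22.5% and 19.7% of all genes. Every E9.5 array was lower for 5 genes in WT and 4 in KO, against 27.8% and 23.4% of all genes. The higher counts include Col3a1, Lamc3, Col6a2 and Vcan in both genotypes and Col27a1 in KO. These genes were kept through E9.5 arrays alone and are no support for the counts. With median scaling in place of quantile normalization, the median of all genes shifted to 0.42 in WT and 0.56 in KO and that of the 44 genes to 0.78 and 0.80. The matrix genes that passed became 26 higher and 1 lower in WT and 27 higher and 5 lower in KO. The share of all genes that passed under that scaling is not given here, so these counts are not read as a matrix result. All E9.5 arrays were run on plate 4 and none of the others were, so stage and plate cannot be told apart in these comparisons.

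Among the fibrillar collagens, 3 of 8 rose in WT (37.5%) and 5 in KO (62.5%), and none fell, where 18.9% and 15.5% of all genes rose. These counts include Col3a1 in both genotypes and Col27a1 in KO, which were kept through E9.5 arrays alone and are no support for them. Col3a1, the chain of type III collagen, was detected on all 8 E9.5 arrays and on none of the 17 earlier ones. Its log2 values on the E8.5 WT arrays were 4.94, 5.0 and 4.73, and on the E9.5 WT arrays 8.0, 7.79, 8.23 and 8.18. The E8.5 KO arrays read 4.89, 4.69 and 4.70, and the E9.5 KO arrays 7.76, 7.73, 8.07 and 7.83. The stages were widely separated in both genotypes. As the E8.5 level was below detection, the difference is a bound: Col3a1 was at least 4.95-fold higher at E9.5 in WT and at least 4.24-fold higher in KO (limma adjusted p 7.23e-13 and 1.87e-12). Its second kept probe also rose, by 1.59 ± 0.21 (SE) on the log2 scale in WT and 1.77 ± 0.21 in KO.

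Col1a1, the main chain of type I collagen, read 5.95, 5.24 and 5.20 on the E8.5 WT arrays and 7.85, 7.76, 8.05 and 9.99 on the E9.5 WT arrays. In KO it read 4.89, 5.64 and 5.26 at E8.5 and 7.5, 7.5, 8.44 and 6.93 at E9.5. No E9.5 array overlapped an E8.5 array, and E9.5 WT array 4 stood above the other WT arrays. The log2 rise in WT was 2.95 ± 0.45 (SE; limma adjusted p 4.06e-05), and in KO, where no E8.5 array detected the gene, Col1a1 was at least 3.56-fold higher at E9.5 (adjusted p 0.000668). The probe of Col1a2, the partner chain of type I collagen, was detected only on 3 E9.5 WT arrays and did not pass in either genotype, with log2 differences of 0.47 ± 0.24 and 0.01 ± 0.24.

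Col2a1, the collagen of notochord sheath and cartilage precursors, was detected on every array. It rose by 1.19 ± 0.24 (SE) in WT and by 1.00 ± 0.24 in KO from E8.5 to E9.5 (limma adjusted p 0.00062 and 0.00385), and its second probe by 1.16 ± 0.29 and 1.00 ± 0.29. Col5a1, a chain of type V collagen, which sits in the core of type I fibres, read 9.59, 9.70 and 9.58 on the E8.5 KO arrays and 10.16, 10.22, 10.77 and 9.96 on the E9.5 KO arrays. Its rise of 0.66 ± 0.17 (SE) passed in KO, and the WT difference of 0.31 ± 0.17 did not (adjusted p 0.00559 and 0.154), and the difference between these stage differences did not pass (0.35 ± 0.24, adjusted p 0.368). Col27a1 passed in KO alone (0.64 ± 0.17, adjusted p 0.0076), with 0 of 3 E8.5 arrays above detection and no bound above 1. Col11a2 and Col5a3 did not pass in either genotype.

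**Figure D2:**
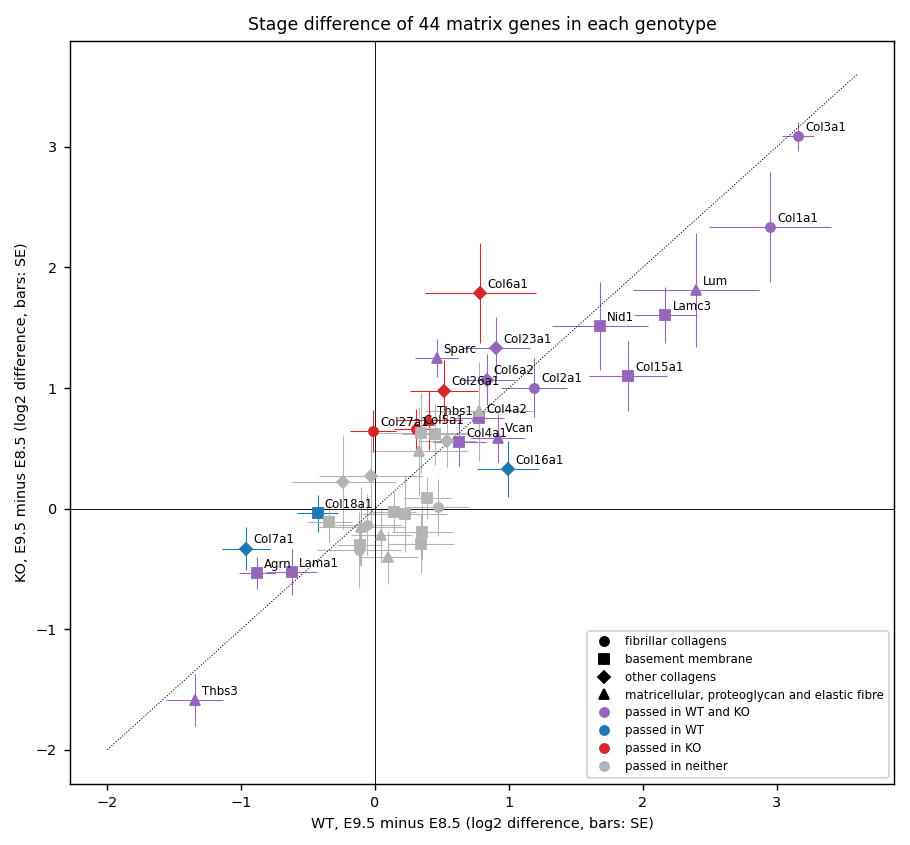
Log2 difference between E9.5 and E8.5 for each of the 44 genes, WT on the horizontal axis and KO on the vertical axis, with bars of 1 SE, marker shape for role group and colour for the genotypes in which limma's adjusted p was under 0.05; the dotted line marks equal differences. Col3a1 (3.16 and 3.09) and Col1a1 (2.95 and 2.33) lie farthest to the upper right, and Thbs3 (-1.35 and -1.59) farthest to the lower left.

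Of the 17 basement membrane genes, 5 rose and 3 fell in WT (47.1% passed), and 5 rose and 2 fell in KO (41.2%), close to the 41.9% and 34.1% of all genes. Lamc3, among the rises in both genotypes, was kept through E9.5 arrays alone. Nid1, which encodes the linker protein nidogen 1, read 7.64, 7.5 and 6.53 on the E8.5 WT arrays and 8.78, 9.06, 8.98 and 8.80 on the E9.5 WT arrays. The E8.5 KO arrays read 6.98, 6.63 and 7.05, and the E9.5 KO arrays 8.21, 8.01, 9.21 and 8.18. In both genotypes every E9.5 array lay above every E8.5 array, with a log2 rise of 1.68 ± 0.36 (SE) in WT and 1.51 ± 0.36 in KO (limma adjusted p 0.000926 and 0.00333). Its paralog Nid2 read 9.95 to 10.30 on the E9.5 WT arrays and 10.17 to 10.72 on the E8.5 WT arrays, a difference of -0.34 ± 0.17 that did not pass (adjusted p 0.112).

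Lamc3, a laminin gamma chain, was below detection on all E8.5 arrays, at 4.91, 4.65 and 4.68 in WT and 5.02, 4.81 and 4.83 in KO. At E9.5 it read 7.01, 6.77, 6.94 and 6.94 in WT and 6.64, 5.87, 7.01 and 6.44 in KO. Every E9.5 array was higher. Lamc3 was at least 2.26-fold higher in WT and at least 1.66-fold higher in KO (limma adjusted p 8.79e-07 and 4.91e-05). Col15a1, a basement membrane collagen of vessels and muscle, was detected on 1 of 3 E8.5 arrays in each genotype. It rose by 1.89 ± 0.29 (SE) in WT and by 1.10 ± 0.29 in KO (adjusted p 4.32e-05 and 0.00719), and the KO value no longer passed without E8.5 KO array 3 (0.89, adjusted p 0.0502).

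Col4a1 and Col4a2 encode the ubiquitous pair of type IV collagen chains that assemble together. They lie head to head on chromosome 8, and their promoter windows are shown because both genes moved the same way between stages. The windows, 250 bases before to 50 after each start (RefSeq, GRCm38.p6), are Col4a1 at chr8:11312777-11313076 on the minus strand and Col4a2 at chr8:11312555-11312854 on the plus strand. Capitals mark the 78 bases that both windows contain, read on opposite strands.
Col4a1: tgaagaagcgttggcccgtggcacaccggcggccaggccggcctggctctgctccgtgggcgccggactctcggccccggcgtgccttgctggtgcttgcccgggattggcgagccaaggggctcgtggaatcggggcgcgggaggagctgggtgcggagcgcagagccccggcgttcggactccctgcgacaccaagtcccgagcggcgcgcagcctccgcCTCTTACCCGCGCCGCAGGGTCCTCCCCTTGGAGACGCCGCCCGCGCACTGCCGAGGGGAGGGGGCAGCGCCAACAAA
Col4a2: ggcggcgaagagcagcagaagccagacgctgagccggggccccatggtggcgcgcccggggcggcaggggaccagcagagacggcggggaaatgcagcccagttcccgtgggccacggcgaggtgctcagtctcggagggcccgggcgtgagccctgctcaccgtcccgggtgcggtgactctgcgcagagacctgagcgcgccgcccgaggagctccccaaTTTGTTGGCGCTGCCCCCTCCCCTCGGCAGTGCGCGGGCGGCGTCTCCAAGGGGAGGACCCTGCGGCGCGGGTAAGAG
Both strands were searched for 3 promoter motifs. Both windows hold CCAAT, found in 37.4% of 32851 such promoters, and GGGCGG, found in 35.7%, and neither holds TATAAA, found in 13.6%. Of the 31 matrix genes with a promoter in the table, 15 held CCAAT, 22 GGGCGG and 3 TATAAA in at least 1 window. These are counts of genes and the percentages are shares of windows, so they are not compared. A match is a description of the letters and not of a site in use.

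Col4a1 read 11.87, 11.56 and 11.38 on the E8.5 WT arrays and 12.51, 12.15, 12.23 and 12.05 on the E9.5 WT arrays. Col4a2 read 11.24, 11.21 and 10.52, and then 11.72, 11.78, 11.86 and 11.71. For both genes every E9.5 WT array was the higher. Col4a1 rose by 0.63 ± 0.20 (SE) in WT and 0.55 ± 0.20 in KO (limma adjusted p 0.0136 and 0.0364). Col4a2 rose by 0.78 ± 0.18 and 0.75 ± 0.18 (adjusted p 0.00197 and 0.00392). Col4a1 was the less secure of the pair, because its KO groups overlapped and the call was lost without E8.5 KO array 1 (0.35, adjusted p 0.204) or array 3 (0.61, 0.0524), or E9.5 KO array 1 (0.47, 0.0942) or array 3 (0.41, 0.122), and its WT call without E8.5 WT array 3 (0.52, 0.0753). Col4a5 and Col4a6, a neighbouring pair on chromosome X, did not pass by their brightest probes, and the second probe of Col4a6 rose in KO by 0.93 ± 0.25 in a fit of every kept probe (adjusted p 0.00767).

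The basement membrane genes that fell were Agrn, Lama1 and Col18a1. Agrn encodes the proteoglycan agrin, and read 13.55, 13.47 and 13.22 on the E8.5 WT arrays against 12.60, 12.61, 12.48 and 12.42 at E9.5. On the KO arrays it read 13.16, 13.21 and 13.27, and then 12.80, 12.60, 12.91 and 12.42. It fell by 0.88 ± 0.13 (SE) in WT and by 0.54 ± 0.13 in KO (limma adjusted p 3.58e-05 and 0.00481), and with median scaling it differed by -0.33 and -0.12 and passed in neither (adjusted p 0.0706 and 0.498). Lama1, the alpha chain of the first embryonic laminin, read 10.66, 10.51 and 10.04 at E8.5 and 9.65, 9.88, 9.90 and 9.70 at E9.5 in WT. It fell by 0.62 ± 0.19 in WT and by 0.53 ± 0.19 in KO (adjusted p 0.0134 and 0.0412), and with median scaling it differed by 0.07 and 0.34, below the all-gene medians of 0.42 and 0.56 under that scaling. The WT call of Lama1 was lost without E8.5 WT array 1 (-0.49, adjusted p 0.0841) or array 2 (-0.57, 0.0518), and the KO call without any of 4 arrays, E8.5 KO arrays 1 (-0.47) and 3 (-0.49) and E9.5 KO arrays 2 (-0.53) and 4 (-0.40). Col18a1, which carries endostatin, fell by 0.43 ± 0.15 in WT (adjusted p 0.0277), differed by 0.13 with median scaling (below the all-gene median of 0.42), and lost the call without E8.5 WT array 3 (-0.34), E9.5 WT array 3 (-0.42) or E9.5 WT array 4 (-0.41). Its other kept probes differed by -0.64 ± 0.41 and 0.05 ± 0.20 in WT and did not pass.

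Several other basement membrane genes did not pass between E8.5 and E9.5. Lamc1, the gamma chain of most laminins, read 9.5 to 10.42 over all 25 arrays and differed by 0.14 ± 0.17 (SE) in WT and -0.03 ± 0.17 in KO. Lamb2, a beta chain, differed by -0.11 ± 0.17 and -0.30 ± 0.17, and Hspg2, which encodes perlecan, by 0.35 ± 0.23 and -0.20 ± 0.23. Lama2, Lama4 and Lamb3 also did not pass.

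Among the matricellular, proteoglycan and elastic fibre genes, 3 of 10 rose and 1 fell in WT (40% passed), and 4 rose and 1 fell in KO (50%). Of all genes, 41.9% and 34.1% passed. The rises include Vcan in both genotypes and Thbs1 in KO, which were kept through E9.5 arrays alone. Lum, the collagen-binding proteoglycan lumican, read 9.55, 9.85 and 7.99 on the E8.5 WT arrays and 10.93, 11.47, 11.49 and 12.22 on the E9.5 WT arrays. Its KO values were 9.94, 9.28 and 8.55, and then 10.88, 11.23, 11.13 and 11.04. Lum rose by 2.40 ± 0.47 (SE) in WT and by 1.81 ± 0.47 in KO, with no overlap between stages (limma adjusted p 0.00043 and 0.00624). Dcn, the related proteoglycan decorin and a neighbour of Lum on chromosome 10, had log2 differences of 0.78 ± 0.41 and 0.81 ± 0.41 that did not pass, while its second probe rose by 0.94 ± 0.25 and 1.23 ± 0.25 in the fit of every kept probe (adjusted p 0.00472 and 0.000875).

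Vcan, the large hyaluronan-binding proteoglycan of paths taken by migrating cells, was detected on 3 of 4 E9.5 arrays in each genotype and on none before. It read 4.82, 5.16 and 4.83 on the E8.5 WT arrays and 6.55, 5.74, 5.72 and 5.41 on the E9.5 WT arrays. Vcan was at least 1.08-fold higher in WT (limma adjusted p 0.000989), and in KO the log2 difference of 0.59 ± 0.20 (SE) passed (adjusted p 0.0285) with no bound above 1. That KO call was lost on leaving out E8.5 KO array 1 (0.62, adjusted p 0.05004), 2 (0.61) or 3 (0.54), or E9.5 KO array 1 (0.52), 3 (0.54) or 4 (0.59). Thbs1, a matricellular thrombospondin, passed in KO alone (0.73 ± 0.24, adjusted p 0.0264), where its groups overlapped and leaving out E8.5 KO array 1 (0.67) or 2 (0.70) or E9.5 KO array 2 (0.62) or 3 (0.58) ended the call.

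Thbs3, a pentameric thrombospondin, was the gene with the largest fall. Its WT arrays read 9.04, 9.01 and 8.76 at E8.5 and 7.34, 7.60, 7.58 and 7.83 at E9.5. Its KO arrays read 9.22, 9.04 and 9.21, and then 7.71, 7.94, 7.16 and 7.47. All E9.5 arrays were lower than all E8.5 arrays. Thbs3 fell by 1.35 ± 0.21 (SE) in WT and by 1.59 ± 0.21 in KO (limma adjusted p 4.92e-05 and 2.15e-05). Its other kept probes differed by -1.11 ± 0.22 and -0.53 ± 0.25 in WT and by -1.15 ± 0.22 and -1.13 ± 0.25 in KO, and all but the WT value of -0.53 passed. Thbs2, Prelp, Fbn2 and Eln did not pass in either genotype.

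Of the 9 other collagens, 3 rose and 1 fell in WT, and 4 rose in KO (44.4% passed in each, against 41.9% and 34.1% of all genes). Col6a2, among the rises in both genotypes, was kept through E9.5 arrays alone. Col6a1 and Col6a2 encode chains of beaded-filament type VI collagen and are neighbours on chromosome 10. Col6a2 was below detection on every E8.5 array and detected on all 8 E9.5 arrays, where it read 5.61 to 5.85 in WT and 5.46 to 6.12 in KO. It passed in both genotypes, with log2 differences of 0.83 ± 0.21 (SE) and 1.07 ± 0.21 (limma adjusted p 0.00328 and 0.000708), a bound of 1.00-fold in WT and none in KO. Col6a1 read 6.06, 6.73 and 6.29 on the E8.5 KO arrays and 7.77, 8.13, 8.88 and 7.81 at E9.5. Its rise of 1.79 ± 0.41 passed in KO and the WT difference of 0.79 ± 0.41 did not (adjusted p 0.00273 and 0.138), while the difference between them did not pass (1.00 ± 0.59, adjusted p 0.287). The second probe of Col6a1 differed by 0.71 ± 0.34 in KO and -0.38 ± 0.34 in WT and passed in neither.

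Col23a1, a transmembrane collagen, rose in both genotypes, by 0.90 ± 0.25 (SE) in WT and 1.33 ± 0.25 in KO (limma adjusted p 0.00717 and 0.000562). The WT call was lost without E8.5 WT array 3 (0.63, adjusted p 0.0686). Col16a1 rose in WT by 0.99 ± 0.23 and Col26a1 in KO by 0.98 ± 0.25, and neither differed between the genotypes in a test of that difference (adjusted p 0.204 and 0.435). Col7a1, the collagen of anchoring fibrils beneath stratified epithelia, fell in WT by 0.96 ± 0.18 (adjusted p 0.000247), and with median scaling it differed by -0.29 and did not pass (adjusted p 0.202).

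**Figure D3:**
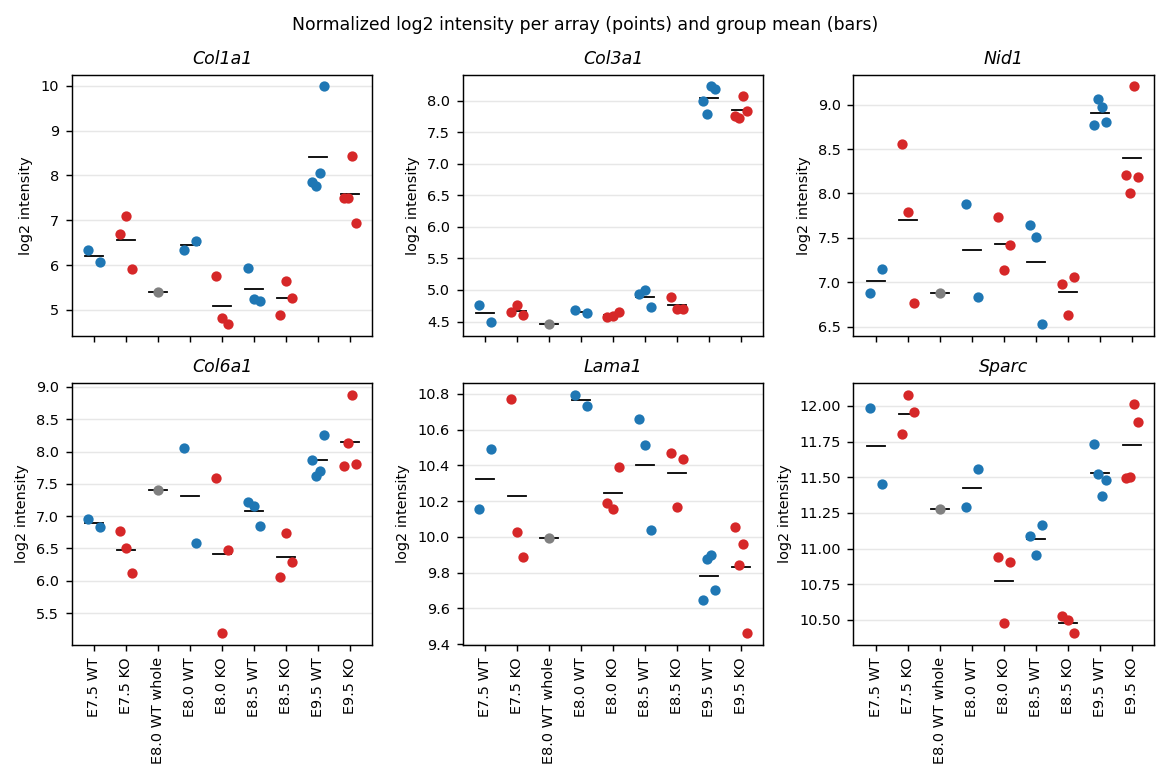
Normalized log2 intensity of Col1a1, Col3a1, Nid1, Col6a1, Lama1 and Sparc on every array (points), by stage and genotype, with the group mean as a bar; WT is blue, KO red and the array labelled whole embryo grey. The E9.5 points of Col3a1 (7.73 to 8.23) stand above every earlier array, and E9.5 WT array 4 stands alone for Col1a1 at 9.99.

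Markers of several other cell types differed between E8.5 and E9.5, read here against the 41.9% of all genes that passed in WT and 34.1% in KO. In bulk tissue, more cells of a type and more RNA per cell cannot be told apart. The mean log2 value of 18 kept head mesenchyme and neural crest markers was 7.18 to 7.64 on E8.5 WT arrays and 7.88 to 8.11 on E9.5 WT arrays, and 6.82 to 7.63 and 7.79 to 8.32 on the KO arrays. Of those 18, 10 rose and 2 fell in WT and 12 rose in KO (66.7% in each). The rises included Twist1 (1.75 ± 0.22, SE, in WT) and Prrx1 (2.17 ± 0.28). The WT falls were Meox1, with group means of 8.31 at E8.5 and 5.34 at E9.5, and Tcf15, at least 3.59-fold lower at E9.5. Foxd1, Meox2, Alx1 and Alx4 were undetected on the E8.5 WT arrays, and Meox2 and Tcf15 on the E9.5 WT arrays. Foxd1 and Alx1 were undetected in every group before E9.5 and passed the filter on that stage. Their rises, counted in both genotypes, are no support for the counts. Of 15 endothelial markers, 5 rose and 2 fell in WT (46.7%) and 7 rose and 2 fell in KO (60.0%). Of 9 erythroid markers, 5 rose in WT (55.6%) and 2 in KO (22.2%). Of 14 surface ectoderm markers, 5 rose and 2 fell in WT (50%) and 6 fell in KO (42.9%), and their mean was 8.56 to 8.89 at E8.5 and 8.96 to 9.41 at E9.5 in WT, against 8.77 to 9.33 and 8.68 to 9.07 in KO. Of 12 cardiac markers, 3 fell in WT and 2 in KO, and their mean was 5.67 to 7.23 on E8.5 WT arrays and 5.17 to 5.43 on E9.5 WT arrays. Of 18 neural progenitor markers, 3 rose and 4 fell in WT and 6 rose and 1 fell in KO (38.9% in each). Before E9.5, Pou3f3 was undetected in every group and Fabp7 was detected on 1 E8.5 KO array only. The rises of Fabp7 in both genotypes and of Pou3f3 in KO are thus no support for these counts. The part of these cell types in the matrix differences was not tested.

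Genes that make, bind or cut the matrix are given beside the 41.9% of all genes that passed between E8.5 and E9.5 in WT and the 34.1% in KO. Of 24 kept genes of collagen synthesis, folding and crosslinking, 5 rose and 6 fell in WT (45.8%) and 5 rose and 2 fell in KO (29.2%). Pcolce, the enhancer of procollagen C-proteinase, rose by 2.27 ± 0.27 (SE) and 2.06 ± 0.27, and Lox, which crosslinks collagen and elastin, by 1.43 ± 0.40 and 1.63 ± 0.40. Plod3, a collagen lysyl hydroxylase, fell by 1.27 ± 0.13 and 0.75 ± 0.13, and Bmp1, the procollagen C-proteinase, by 1.09 ± 0.18 and 0.90 ± 0.18. Of 22 matrix receptors, 7 rose and 3 fell in WT (45.5%) and 8 rose and 3 fell in KO (50%). Before E9.5, Ddr2 was undetected in every group, Itgb6 in all but E8.5 KO (1 array) and Itga11 in all but E8.0 WT. These genes passed the filter on E9.5 arrays, so their rises in both genotypes are no support for the counts. Itga11, an integrin chain for fibrillar collagen, was below detection on every E8.5 array of both genotypes and was at least 1.34-fold higher at E9.5 in WT and at least 1.92-fold higher in KO. Dag1, the dystroglycan that binds laminin, fell by 0.84 ± 0.21 and 0.83 ± 0.21. Of 16 proteases and inhibitors, 3 rose and 4 fell in WT (43.8%) and 3 rose in KO (18.8%), and Reck, a membrane inhibitor of metalloproteinases, rose by 0.95 ± 0.19 and 0.82 ± 0.19. The WT falls were Mmp9, Mmp2, Adamts4 and Htra1. Mmp9 was undetected on the E9.5 WT arrays and at least 3.23-fold lower there. Group means at E8.5 and E9.5 in WT were 11.8 and 11.2 for Mmp2, 8.46 and 7.84 for Adamts4, and 6.84 and 5.62 for Htra1.

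The comparison of KO with WT asked whether the matrix genes differ with the loss of miR-302 at each stage. At E7.5, 0 of the 44 genes passed in limma, where 0.224% of all genes passed. An unadjusted p under 0.05 was found for 0 of the 44 genes, against 818 of all 10261 genes. Differences ranged from -1.01 ± 0.57 (SE) for Lum, detected on 1 WT array and no KO array, to 0.87 ± 0.44 for Thbs2, detected on no WT array and 1 KO array. The smallest adjusted p was 0.64 (Fbn2). By direction, 0.175% of all genes were higher and 0.0487% lower. The groups did not overlap for 4 of the 44 genes higher in KO and 3 lower, against 9.92% and 10.4% of all genes. Mrc2, a collagen uptake receptor, was below detection on every KO array at this stage and was at least 1.29-fold lower there than in WT (limma adjusted p 0.0356).

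At E8.0, 4 of the 44 genes (9.09%) were lower in KO and none higher, where 0.507% of all genes were lower and 1.17% higher (1.68% in all). These were Thbs2, Prelp, Thbs1 and Col7a1. The groups did not overlap for 15 genes lower in KO (34.1%) and 1 higher, against 16.5% and 18.4% of all genes, and the median difference was -0.28 against 0.03. With the series matrix identity 0 of the 44 genes and 0.156% of all genes passed, 8 genes were lower without overlap and 2 higher against 12.5% and 13.4% of all genes, and the median was -0.14 against 0.02.

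Thbs2, a matricellular thrombospondin, read 7.48 on E8.0 WT array 2, 6.06 on WT array 3 and 4.54 on the array named whole embryo. The KO arrays read 4.97, 4.65 and 4.66. Both WT arrays were above the KO arrays and the whole-embryo array was below them. No KO array detected the gene, so Thbs2 was at least 1.84-fold lower in KO (limma adjusted p 0.036), and with the series matrix identity it differed by -0.54 ± 0.45 (SE; adjusted p 0.599). Prelp, a proteoglycan that anchors basement membranes to connective tissue, read 7.18 and 6.5 on the WT arrays, 4.88 on the whole-embryo array and 4.77, 5.84 and 4.72 on the KO arrays. It was at least 1.93-fold lower in KO (adjusted p 0.0367), and differed by -0.58 ± 0.45 with the series matrix identity (adjusted p 0.576).

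Thbs1 was detected on WT array 3 (6.48) and not on WT array 2 (5.30), and all KO arrays (4.72, 4.54 and 4.83) were below detection. The bound on its fold was 1.00. Its measured log2 difference was -1.20 ± 0.29 (SE; limma adjusted p 0.0438) and -1.11 ± 0.31 with the series matrix identity (adjusted p 0.153). Col7a1 was the only one of the 4 detected on all of these arrays. It read 7.68 and 7.78 on the WT arrays, 7.19 on the whole-embryo array and 6.52, 6.90 and 6.83 on the KO arrays, so each WT array was above each KO array under either identity. Its difference was -0.98 ± 0.21 (adjusted p 0.036), or -0.73 ± 0.23 with the series matrix identity (adjusted p 0.185).

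With plate as a covariate the differences of Thbs2, Prelp, Thbs1 and Col7a1 at E8.0 were -2.01, -1.54, -1.20 and -0.84, and on the plate 1 arrays alone -2.12, -1.56, -1.21 and -0.86, and none passed in limma (adjusted p 0.064 to 0.111). Without WT array 2, which leaves a lone WT array, the differences of these genes in the same order were -1.30, -1.39, -1.79 and -1.03. Without WT array 3 they were -2.72, -2.07, -0.60 and -0.92. The number of matrix genes that passed was 0 without KO array 1, 1 without KO array 2 and 6 without KO array 3. The share of all genes that passed in those fits is not given here, so these counts are not read as a matrix result. Trophoblast markers separated the groups as labelled, at 7.55 and 7.20 on the WT arrays and 7.92, 8.5 and 7.85 on the KO arrays, with the whole-embryo array at 8.16. One of them, Hand1, was undetected on the WT arrays and at least 1.55-fold higher in KO (limma adjusted p 0.0191), or 0.61 ± 0.39 (SE) on the log2 scale with the series matrix identity (adjusted p 0.485). Cardiac markers averaged 6.31 on WT array 2, 8.67 on WT array 3 and 6.43 on the whole-embryo array, and 6.84 to 8.44 on the KO arrays, and the part of both in these differences was not tested. Of the matrix enzymes and receptors, Adamts1, a protease that cuts versican, was undetected on the KO arrays and at least 1.14-fold lower there (limma adjusted p 0.0413), and differed by -0.75 ± 0.39 (SE) with the series matrix identity (adjusted p 0.402).

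**Figure D4:**
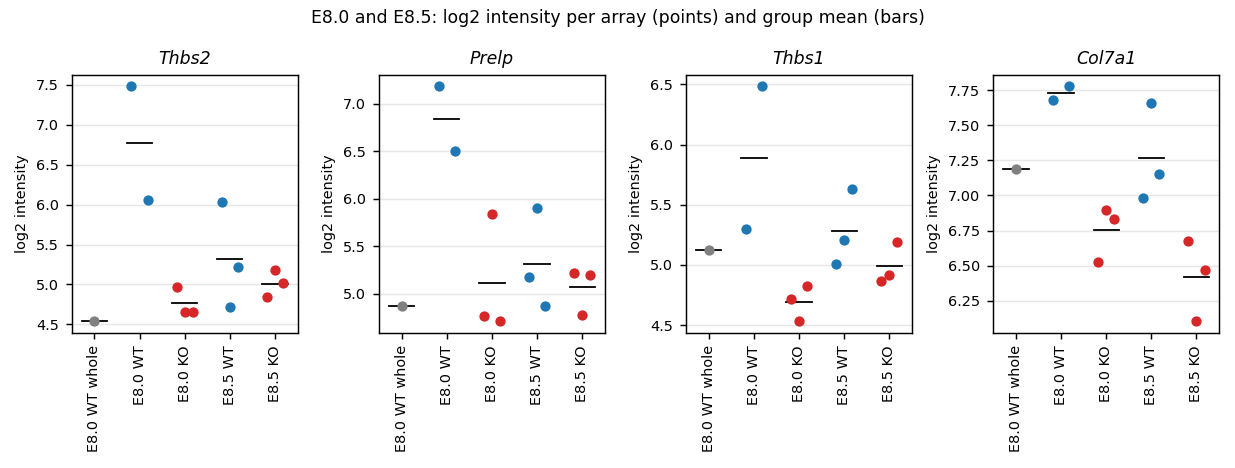
Normalized log2 intensity of the 4 genes that were lower in KO at E8.0, on the E8.0 and E8.5 arrays (points) with the group mean as a bar; WT is blue, KO red and the array labelled whole embryo grey. The whole-embryo array lies with the KO arrays for Thbs2 (4.54) and Prelp (4.88) and between the groups for Col7a1 (7.19).

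At E8.5, 2 of the 44 genes (4.55%) were lower in KO and none higher, where 2.44% of all genes were lower and 3.16% higher (5.59% in all). Col7a1 read 6.98, 7.65 and 7.15 in WT and 6.67, 6.11 and 6.47 in KO. Sparc, a secreted collagen-binding protein also called osteonectin, read 11.09, 10.95 and 11.16 in WT and 10.53, 10.50 and 10.41 in KO. The groups did not overlap for either gene. Col7a1 was lower by -0.85 ± 0.19 (SE; limma adjusted p 0.0175) and Sparc by -0.59 ± 0.17 (adjusted p 0.0468). WT arrays were all on plate 2 and only KO array 1 shared it, and within plate 2 the differences were -0.59 and -0.54 and did not pass (adjusted p 0.343 and 0.361), with KO array 1 as the lone KO sample, assumed to vary like the other groups. The same values came from plate as a covariate, with adjusted p 0.248 and 0.307.

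The Col7a1 call was lost without E8.5 WT array 2 (-0.65) or KO array 2 (-0.69). That of Sparc was lost without any 1 of the 6 arrays, with the difference at -0.54 to -0.65. The other kept probe of Sparc differed by -0.67 ± 0.25 (SE) at E8.5 (limma adjusted p 0.125) and by -1.52 ± 0.28 at E8.0 (adjusted p 0.0199), both in the fit of every kept probe. That E8.0 value passed with the series matrix identity as well (-1.51 ± 0.28, adjusted p 0.0433). The brightest probe differed by -0.65 ± 0.19 at E8.0 in the same fit (adjusted p 0.074). In the gene-level fit with the series matrix identity Sparc differed by -0.64 ± 0.19 at E8.0 (adjusted p 0.167). The second probe of Col6a1 was also lower at E8.0 (-1.67 ± 0.41, adjusted p 0.0419), and differed by -1.31 ± 0.39 with the series matrix identity (adjusted p 0.159). Without overlap, 8 of the 44 genes (18.2%) were lower in KO at E8.5 and 1 higher, against 14.9% and 13.7% of all genes. Among other matrix genes at E8.5, Mmp2, a gelatinase, was lower in KO by -0.92 ± 0.17 (adjusted p 0.00574). Mrc2 was undetected on the KO arrays and at least 1.17-fold lower (adjusted p 0.014), and Adamts3, a procollagen N-proteinase, was higher by 1.42 ± 0.34 (adjusted p 0.023).

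At E9.5, 0 of the 44 genes passed in limma, where 2.23% of all genes passed (1.55% higher, 0.682% lower). An unadjusted p under 0.05 was found for 4 of the 44 genes, against 1846 of all 10261 genes. Those 4 were Col15a1, Col16a1, Col1a2 and Col4a1, each lower in KO. Col15a1 read 7.01, 7.59, 7.34 and 6.97 in WT and 6.68, 6.40, 6.33 and 6.34 in KO, the only one of the 44 genes whose groups did not overlap (2.27%, against 6.48% of all genes lower and 7.84% higher). Its difference was -0.79 ± 0.27 (SE; adjusted p 0.126). It passed with E9.5 fitted alone (-0.79, adjusted p 0.0209), with an offset of 50 (-0.61, 0.0394), with median scaling (-0.78, 0.0204) and in the authors' processed values (-0.37, 0.0132). Col1a1 was at -0.82 ± 0.42 (adjusted p 0.32). All arrays of both genotypes were on plate 4. Of the other matrix genes, Ddr1, a collagen receptor kinase, was higher in KO at E9.5 (1.81 ± 0.45, adjusted p 0.0394), as was P3h2, a collagen prolyl hydroxylase (0.79 ± 0.19, adjusted p 0.0355).

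**Figure D5:**
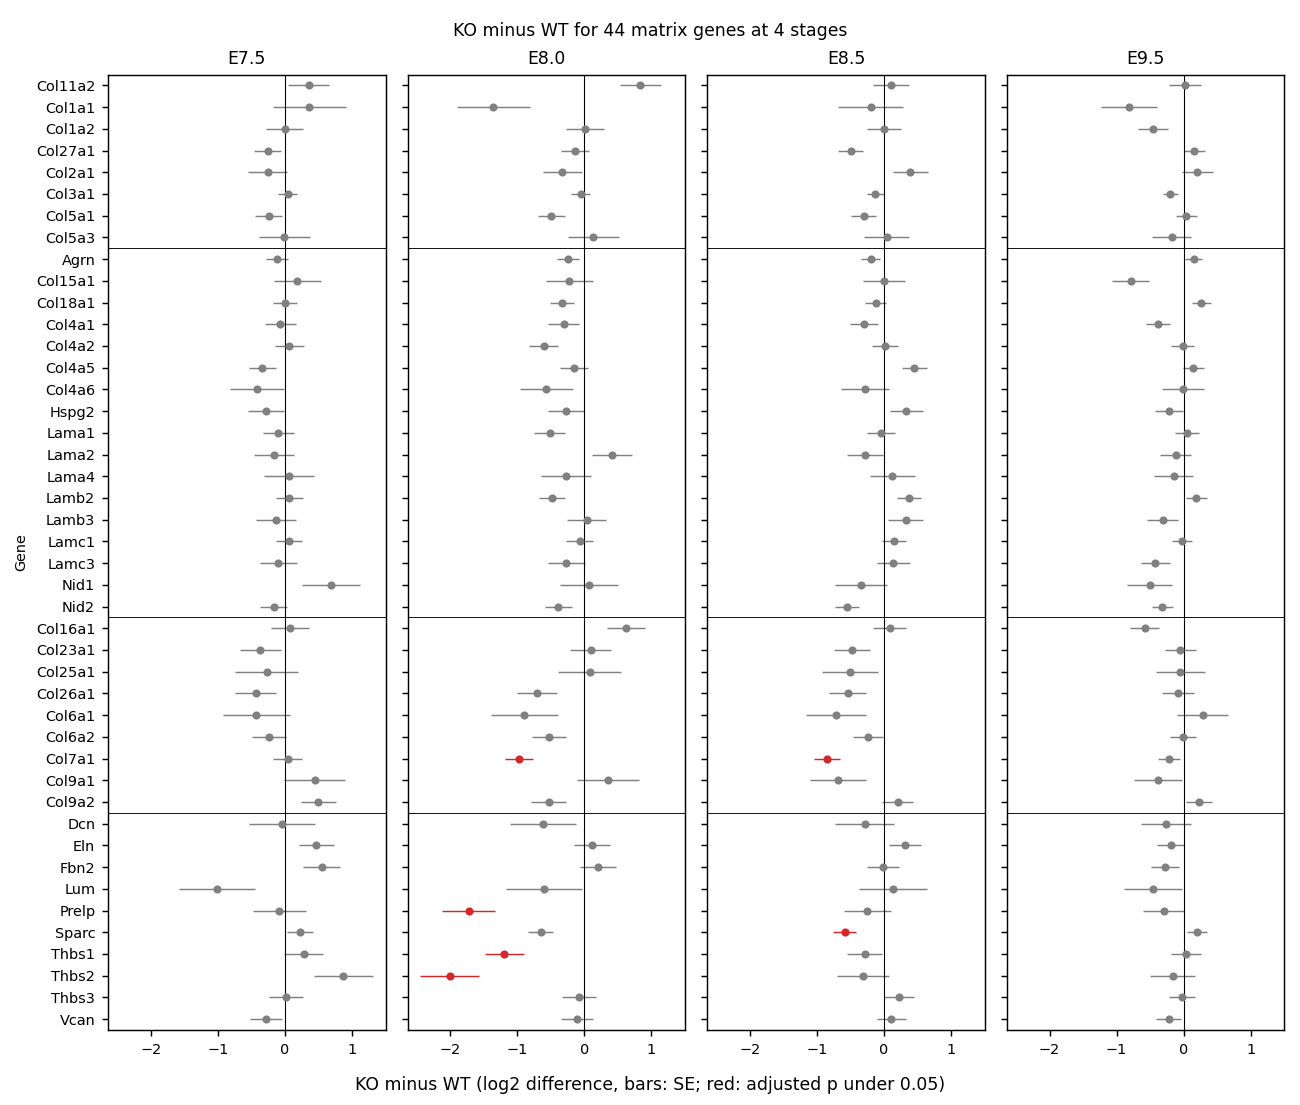
Log2 difference between KO and WT (bars of 1 SE) for each of the 44 genes at each stage, in 4 role groups, with genes at a limma adjusted p under 0.05 in red. Red points are Thbs2, Prelp, Thbs1 and Col7a1 at E8.0 and Col7a1 and Sparc at E8.5, with none at E7.5 or E9.5.

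The difference between KO and WT at E9.5 was tested against that at E8.5, which is also the difference between the genotypes in the stage difference. Only Sparc passed (1 of 44 genes, 2.27%, where 10.1% of all genes passed, 4.33% higher and 5.77% lower). Among other matrix genes, Mmp2 (1.01 ± 0.23, SE) passed upward and Adamts3 (-1.43 ± 0.45) and Itgb1 (-0.86 ± 0.27) downward, as did Mrc2 upward and Adamts5 downward, which were undetected in some of these groups. Sparc rose from E8.5 to E9.5 in both genotypes, by 0.46 ± 0.16 (SE) in WT and 1.25 ± 0.16 in KO, and its E9.5 values were 11.73, 11.52, 11.37 and 11.48 in WT and 11.49, 11.50, 12.01 and 11.88 in KO. The genotypes overlapped at E9.5 and not at E8.5. The KO rise was the larger by 0.79 ± 0.22 (limma adjusted p 0.0334), and by 0.74 with plate as a covariate (adjusted p 0.146). This call was lost without any 1 of 8 arrays, E8.5 WT arrays 1 and 3, E8.5 KO arrays 2 and 3, E9.5 WT arrays 3 and 4 and E9.5 KO arrays 3 and 4, with the difference at 0.69 to 0.80 (adjusted p 0.0623 to 0.0759). The WT rise of Sparc lost its call without E8.5 WT array 1 (0.47) or 2 (0.40) or E9.5 WT array 1 (0.39). Of the 24 genes called in either stage comparison, 16 were called in both, and no other gene called in 1 genotype alone differed between genotypes in this test.

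Between E8.0 and E8.5, 0 of the 44 genes passed in either genotype in limma, where 0.039% of all genes passed in WT and 3.23% in KO (1.03% higher, 2.19% lower). The groups did not overlap for 4 of the 44 genes higher and 11 lower at E8.5 in WT, against 12.5% and 11.3% of all genes, and for 9 higher and 7 lower in KO, against 7.55% and 11.6%. At an unadjusted p under 0.05 there were 3 in WT and 7 in KO, against 695 and 1990 of all 10261 genes. With the series matrix identity, 2 genes were higher and 7 lower without overlap in WT, against 7.97% and 9.75% of all genes, and 2 had an unadjusted p under 0.05. The all-gene count at that unadjusted p was not taken for this identity. The WT comparison set plate 1 arrays against plate 2 arrays, so that stage and plate cannot be told apart there, and with the series matrix identity 0 genes passed as well. The largest differences were -1.52 ± 0.39 (SE) for Prelp in WT, which was -0.37 ± 0.45 with the series matrix identity, and -0.89 ± 0.27 for Col23a1 in KO.

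From E7.5 to E8.0 the tissue changed from whole embryo to anterior neural tissue as well as the stage, so these levels are given as a description. The 6 E8.0 arrays and the 20 later arrays include the E8.0 array labelled whole embryo, for which the tissue label did not change. Lamb3, a laminin chain of epithelia, read 7.25 to 7.94 on the 5 E7.5 arrays and 4.82 to 5.91 on the 20 later arrays. Nid2 read 11.30 to 11.55 and then 9.37 to 10.73. Both lay above every later array, as did 6.11% of all genes. Col4a1 and Col4a2, with those 2 genes, lay above every E8.0 array (4 of 44, against 8.04% of all genes), at 12.40 to 12.77 against 11.55 to 11.97 and at 11.55 to 11.90 against 10.53 to 11.47.

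Col2a1, Col26a1 and Lum lay below every later array, as did 3.11% of all genes. Col2a1 read 7.49 to 8.66 at E7.5 and 9.73 to 12.11 afterwards, and Lum 4.60 to 6.63 and then 7.99 to 12.22. Dcn, with those 3 genes, lay below the E8.0 arrays (4 of 44, against 6.23% of all genes), at 5.19 to 7.36 against 7.45 to 8.85. Visceral and parietal endoderm markers averaged 9.31 to 9.94 on the E7.5 arrays and 6.23 to 7.33 on the E8.0 arrays, and their part in these levels was not tested.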

How the data were processed

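Each of 25 embryo samples was hybridised to 1 array. The deposited raw table holds an average intensity and a detection p-value per probe, without normalization per the file headers, and the deposited series matrix holds the authors' processed intensity values. The sources used here do not give how either was made. The members and gene lists were chosen with earlier results of these data known.

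Detection columns of the 3 E8.0 WT arrays were paired with the signals they are in order with (0 steps out of order). Signals were background corrected (normexp), then normalized by quantiles after adding an offset of 16, as log2 values (neqc, limma 3.58.1, R 4.3.3). Probes with detection p under 0.05 on at least 3 arrays were kept, and each gene took its brightest kept probe. One linear model with 9 group coefficients was fitted by lmFit and eBayes (16 residual degrees of freedom, 19.2 with the prior), two-sided, with Benjamini-Hochberg adjustment per comparison. A group below detection on every array gives a bound: its arrays are set to the lowest detected value or their own, whichever is higher. No bound under 1 is given. The fit was tested on simulated data. Named genes are all members past the threshold, a fixed set of main matrix genes, and list genes past it. Precision is limited by the number of arrays. Gene symbols come from the platform annotation, and the RefSeq table (GRCm38.p6) was used for names, neighbours and sequences.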

Additional observations from a re-analysis of the deposited data

Results flagged for a closer look

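In the 4 E9.5 WT arrays and the 4 E9.5 KO arrays, each of the 44 genes was checked for an array far from the others of its group. Of 88 such groups, 3 were found, where chance gives about 1 in 20 (4.4). Col1a1 read 9.99 on E9.5 WT array 4 and 7.76 to 8.05 on the other WT arrays. On the same array, Col16a1 read 8.49 against 7.88 to 7.97. Nid1 read 9.21 on E9.5 KO array 3 and 8.01 to 8.21 on the other KO arrays. The stage differences of Col1a1 and Nid1 in both genotypes and of Col16a1 in WT kept their calls on leaving out any 1 array.

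The KO minus WT difference of Sparc changed between stages, by 0.79 on the log2 scale in the test of the difference itself.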

How the results depend on the processing

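The limits are few arrays per group, the identity of the E8.0 WT arrays, and plates that coincide with E9.5. Of 47 calls of single genes, 26 kept direction and call under every alternative run, all in the E9.5 against E8.5 comparisons. These include Col3a1, Lamc3 and Col6a2 in both genotypes and Vcan in WT, which were kept through E9.5 arrays alone. Their calls are no support here. Calls between E9.5 and E8.5 faced 16 or 17 alternatives, without a plate fit, and the other calls 20 to 26. With median scaling, which moved all-gene medians to 0.42 in WT and 0.56 in KO, the sign turned for Col18a1 in WT (0.127) and for Lama1 in WT (0.0725) and KO (0.335), all still below those medians. The matrix genes lower or higher in KO at E8.0 went from 4 to 0 with median scaling, the authors' processed values, plate as a covariate, plate 1 alone, the series matrix identity, the whole-embryo array added to WT, E8.0 fitted alone and a replicate block. At E8.5, 2 became 1 with median scaling, no filter, every probe or plate as a random block, and 0 with plate as a covariate, plate 2 alone, E8.5 fitted alone or a replicate block. At E9.5, 0 became 1 (Col15a1) as given above. KO E8.5 against E8.0 gave 3 with plate as a covariate and 1 within plate 2, against 0. KO E9.5 against E8.5 gave 32 with median scaling, against 21, and the share of all genes under that scaling is not given here. The KO difference between E9.5 and E8.5 gave 0 with plate as a covariate or a replicate block, against 1. Leaving out each array in turn gave 0 to 6 genes at E8.0, 0 to 1 at E8.5, 0 to 1 for KO E8.5 against E8.0, 17 to 19 for E9.5 against E8.5 in each genotype and 0 to 2 for the difference between stages. E7.5 KO against WT and WT E8.5 against E8.0 stayed at 0 throughout. Except for the series matrix identity, the share of all genes that passed under each alternative is not given here. The changes in these counts are thus not read as a matrix result. The causes were not tested. The replicate numbers did not pair samples: 1 of 11 same-numbered pairs correlated above 0.1 (range -0.133 to 0.159) and 2 correlated best with their own number. Pairing detection columns by name, normalizing E8.5 and E9.5 alone, counting genes kept without E9.5 arrays, and the overlap counts of WT E8.5 against E8.0 under the series matrix identity were alternatives chosen after seeing the data. The processed values were not run for E9.5 against E8.5. Their array median was 124.5 on every E7.5 to E8.5 array and 153.2 on every E9.5 array. Genes near background (Thbs1, Col6a2, Vcan) have values whose size the signal limits.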
